A study of Aspergillus niger with 8 samples.

Results

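After the removal of glucose, 51 of the 15431 gene models of Aspergillus niger were set apart by their levels at 6 h. In every 6 h culture, these genes exceeded all cultures on glucose and at 24 h of starvation by the margin set below. They were chosen on normalised read counts, the counts of a gene divided by the reads on genes of that library and scaled to counts per 1e6 reads (CPM), with 5 added. For a gene to be included, the lowest of the 4 values at 6 h had to be at least 2 times the highest of the 4 values on glucose and at 24 h of starvation. The levels of these genes on glucose, at 6 h and at 24 h therefore made the selection and are given as a description, without a test.

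Strain N402 was grown for 48 h in shake flasks on glucose, and mycelium from such cultures was washed and moved to fresh medium. The second condition was 6 h on ball-milled wheat straw as the only carbon source, and the remaining conditions were 6 h and 24 h in medium without any carbon source. All cultures shared the 48 h of growth on glucose, and 2 cultures, A and B, were sequenced in each of the 4 conditions. The comparison of straw with starvation at the same time asks which part of the response differs with straw, since both share the loss of glucose. The study states that typical straw cultures held low amounts of xylose and arabinose before inoculation. Polysaccharide and soluble sugars of the straw medium therefore cannot be told apart.

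In aspergilli, glucose silences many genes through the repressor protein CreA, and this carbon catabolite repression is lifted when the sugar runs out. Genes for secreted carbohydrate-active enzymes, which cut the polysaccharides of plant cell walls, are then transcribed, either because repression has ended or because a sugar released from the wall activates a specific regulator. Cells without sugar also turn to acetate and fatty acids, and the glyoxylate bypass, which starts with isocitrate lyase, lets them build sugars from these compounds. Among the enzymes of A. niger are pectinases, which cut the galacturonic acid backbone of pectin and its side chains of arabinose and galactose.

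Reads on genes ranged from 205778 in 24 h starvation B to 979256 in 6 h straw B, so that 1 read was worth between 1.02 and 4.86 CPM, and no read in a library allowed a level of up to 3.06 to 14.6 CPM (3 reads, counting error only). Reads on genes were between 1.41 and 3.40% of all reads of a library. The samples are labelled mycelia. A list of conidiophore and spore markers held 5 genes. The main text of the study links ctcB, brnA and brlA to conidiation or spores, but does not name mcoB or urhgB (An14g05340), the others of the list. The summed level of the 5 genes was 25.05 to 31.5 CPM on glucose and 17.4 to 17.7 CPM on straw. It was 50.2 to 84.8 CPM at 6 h of starvation and 398 to 449 CPM at 24 h of starvation. In whole mycelium, fewer cells of a kind and less RNA of a gene per cell cannot be told apart.

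The 51 genes together took 0.168 and 0.218% of the reads on genes in the glucose cultures. On 6 h straw they took 4.98 and 5.92%, and at 6 h of starvation 3.78 and 4.32%. At 24 h of starvation the share was 0.636 and 0.508%. The β-glucosidase gene bglA alone made up 1.27 and 1.85% of the reads on genes on straw, and without it the other 50 genes took 3.70 and 4.07% there. The median level over the 51 genes was 6.29 and 6.59 CPM on glucose, 260 and 287 CPM on straw, 180.2 and 195 CPM at 6 h of starvation, and 21.8 and 29.2 CPM at 24 h of starvation.

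**Figure D1:**
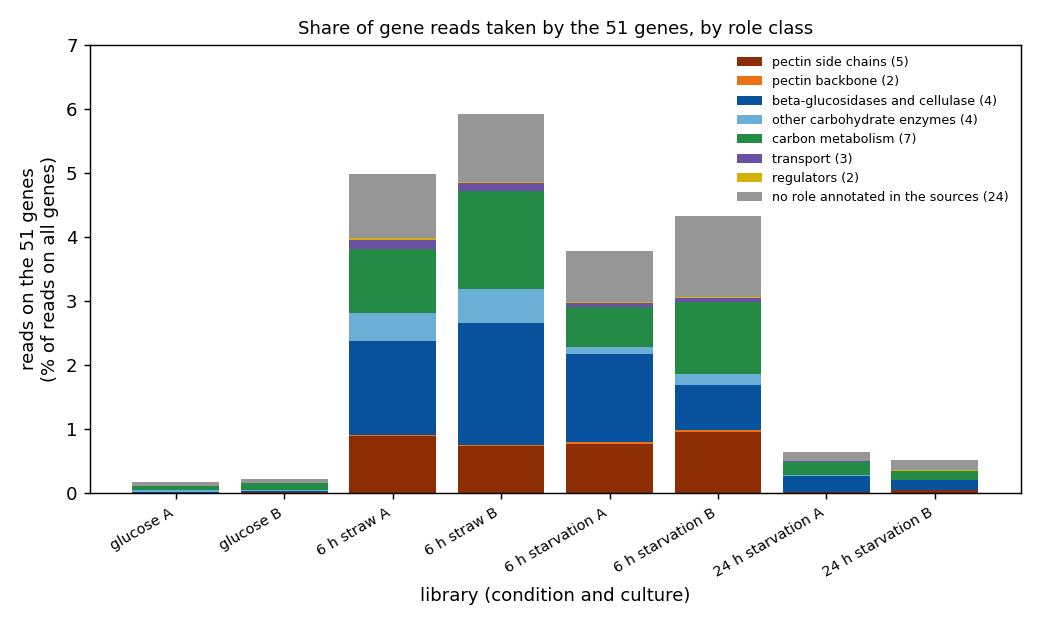
Share of the reads on genes (%, y axis) taken by the 51 genes in each of the 8 libraries (x axis), stacked by role class with the number of genes of each class in the key. The 4 libraries at 6 h reach 3.78 to 5.92%, and the other 4 stay at or below 0.636%.

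On glucose 7 of the 51 genes had no read in either culture, and 2 of them, the putative β-glucosidase gene An04g03170 and An05g02580, also had none at 24 h of starvation. In each 6 h library every one of the 51 genes had at least 1 read, and 33 had reads in all 8 libraries. The ratio of the lowest 6 h value to the highest other value, on the CPM + 5 scale, had a median of 2.63, with 31 genes from 2 to under 3, 12 from 3 to under 5, 6 from 5 to under 10 and 2 above 10. Those 2 were abfB at 19.5 and lacA at 11.2. Between 6 h and 24 h of starvation the mean level fell to a median of 15.7% of its 6 h value, and the gene that kept most was An07g06880 at 40.9%.

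Just inside the threshold lay An01g00630 at a ratio of 2.09, An14g00990 at 2.08 and An14g00920 at 2.06. Just outside it lay An07g03470 at 1.97, An02g00610 at 1.97 and An07g05660 at 1.95. An07g03470 stood at 0 and 1.32 CPM on glucose, 648 and 435 CPM on straw, 167 and 338 CPM at 6 h of starvation, and 34.3 and 82.6 CPM at 24 h. Its highest level outside 6 h, in culture B at 24 h, kept this gene out.

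**Figure D2:**
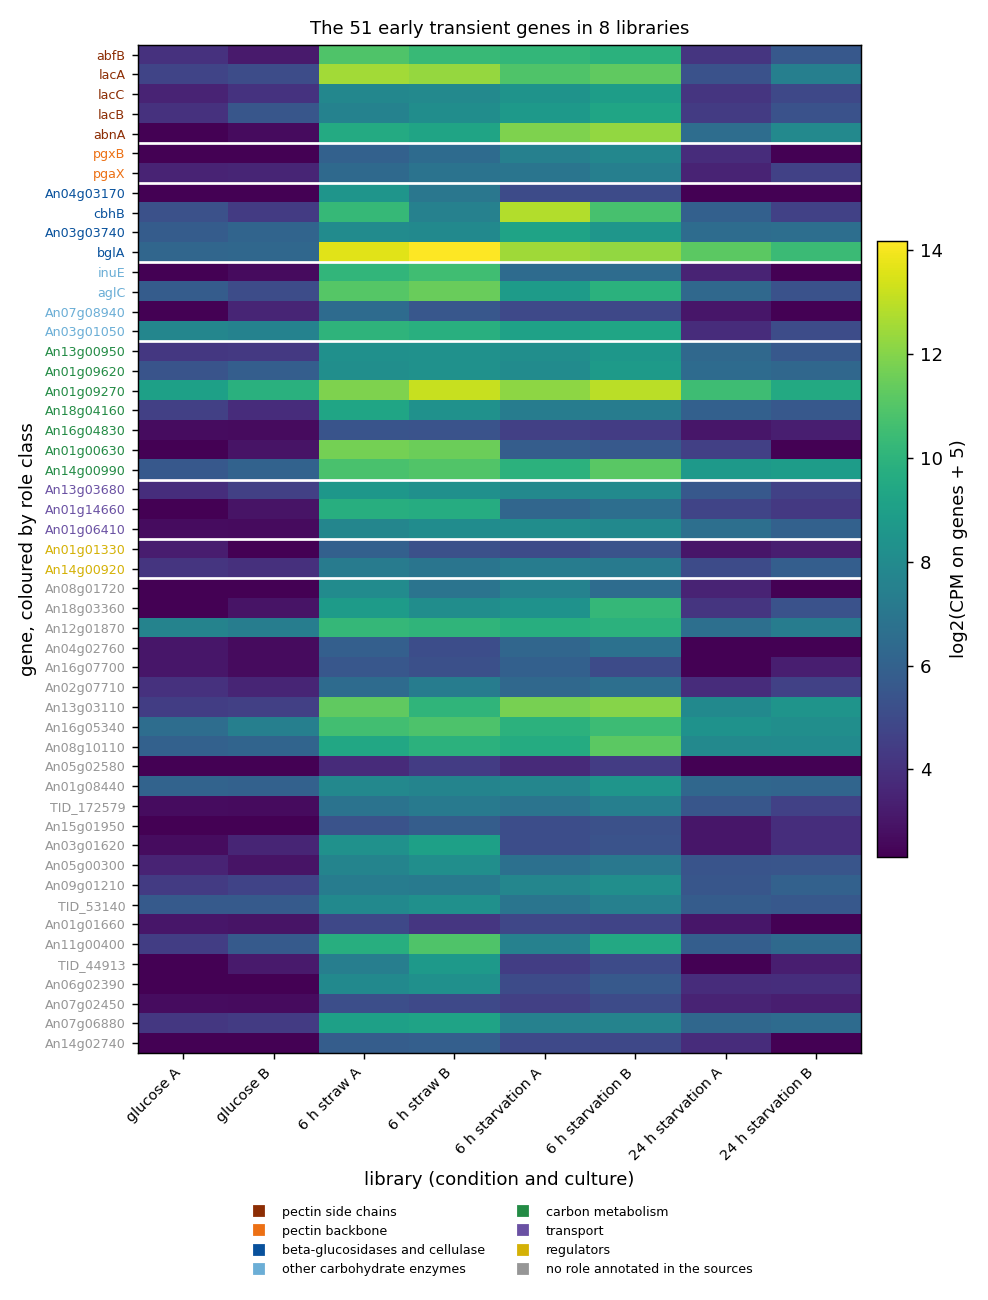
Level of each of the 51 genes (rows, names coloured by role class) in the 8 libraries (columns), as log2(CPM on genes + 5). The 4 middle columns, straw and starvation at 6 h, are the brightest in every row, and bglA and An01g09270 reach the highest values of the plot.

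Whether these genes stood higher on straw or under starvation at 6 h was not used to choose them. This direction was tested with edgeR's quasi-likelihood test on 6357 genes. The rule did set a floor under the level in both conditions, which kept out genes near the glucose level in either condition. All tested genes had no such floor, so the counts of calls below describe the set only. A call required a change of at least 3-fold together with a p, adjusted after Benjamini and Hochberg, below 0.05. Of the 50 genes of the set that passed the filter on low counts, 8 were called higher on straw and 2 lower, against 6.09% and 7.61% of all tested genes. The remaining 40 were not called. The median log2 fold change was 0.38 over the 50 genes and 0.01 over all tested genes, and 30 of the 50 were above 0, against 50.5% of all tested genes.

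The largest difference was that of An01g00630, an oxidoreductase placed by annotation among formaldehyde dehydrogenases and in xylulose metabolism. It stood at 3288 and 2917 CPM on straw and at 50.9 and 44.6 CPM under 6 h of starvation, a log2 fold change of 5.94 (SE 0.59, adjusted p = 9.71e-07). On glucose it had 0 and 2.64 CPM and at 24 h of starvation 18.7 and 0 CPM. The starvation level of this gene was thus just far enough above the other cultures to pass the selection, while its straw level was far higher.

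The exo-inulinase gene inuE, whose product releases fructose from inulin and sucrose, was next with 1114 and 1504 CPM on straw against 82.7 and 86.5 CPM under starvation (log2 fold change 3.89, SE 0.46, adjusted p = 6.54e-06). Then came TID_44913, a gene model with no match in the RefSeq reference, at 162 and 413 CPM against 17.0 and 27.9 CPM, and An03g01620 at 315 and 534 CPM against 29.7 and 36.3 CPM. Their log2 fold changes were 3.65 (SE 0.58) and 3.63 (SE 0.48), with adjusted p of 0.000162 and 2.1e-05. In all 4 genes both straw cultures lay above both starvation cultures.

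A membrane transporter gene, An01g14660, had 867 and 813 CPM on straw and 70.0 and 92.1 CPM under starvation (log2 fold change 3.31, SE 0.43, adjusted p = 1.94e-05). The putative β-glucosidase gene An04g03170 followed at 353 and 127 CPM against 27.6 and 27.9 CPM (3.01, SE 0.54, adjusted p = 0.00078), and its estimate fell to 2.12 without straw A. An06g02390, for which no role is annotated, had 242 and 304 CPM against 27.6 and 44.6 CPM (2.88, SE 0.43, adjusted p = 9.94e-05). The α-galactosidase gene aglC, whose product removes galactose from galactomannan and raffinose-type sugars, had 2130 and 2796 CPM against 452 and 935 CPM (1.78, SE 0.45, adjusted p = 0.00881). Without straw B or without starvation A the call of aglC was lost, and the other 7 held in all 14 alternatives.

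In all, 2 genes of the set were called lower on straw. The endo-arabinanase gene abnA, which encodes an enzyme that cuts the arabinan side chains of pectin from within, had 765 and 598 CPM on straw and 3829 and 4941 CPM under starvation (log2 fold change -2.75, SE 0.47, adjusted p = 0.000373). The cellobiohydrolase gene cbhB, whose product cuts cellobiose from the ends of cellulose chains, had 1216 and 180 CPM on straw and 7261 and 1708 CPM under starvation (-2.78, SE 0.74, adjusted p = 0.0124). Cultures of 1 condition differed several fold in cbhB, and straw A lay near starvation B. Without straw B the estimate was -1.97 and without starvation A it was -1.34, and in both cases, and with DESeq2, cbhB was not called.

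By the adjusted p alone, 11 genes of the set were higher on straw and 3 lower, against 7.30% and 9.11% of all tested genes, so 4 missed only the 3-fold change. These included An18g04160 (1.55, SE 0.41, adjusted p = 0.0133), An07g06880 (1.49, SE 0.36, adjusted p = 0.00652) and bglA (1.48, SE 0.46, adjusted p = 0.0329), higher on straw, and pgxB (-1.47, SE 0.43, adjusted p = 0.0254), lower on straw. By level alone, the groups of 2 did not overlap in 24 genes of the set that were higher on straw and 10 that were lower, against 29.8% and 24.7% of all tested genes.

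**Figure D3:**
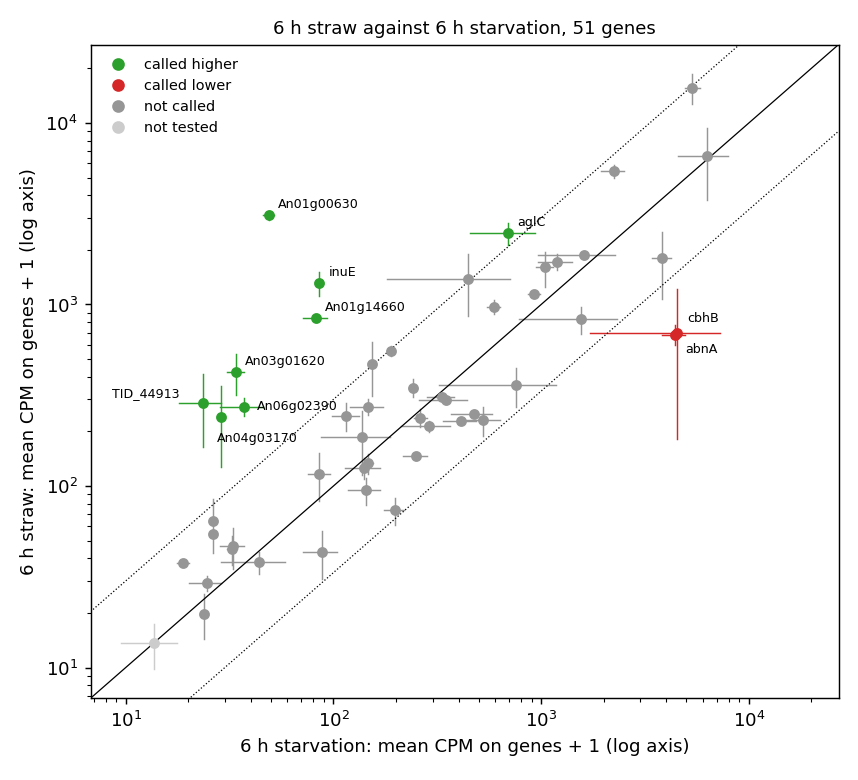
Mean CPM on genes + 1 of the 51 genes at 6 h of starvation (x axis) and on 6 h straw (y axis), both on log axes. Points are means of 2 cultures, the bars run from culture A to culture B, the solid line marks equal levels and the dotted lines 3-fold differences. The 8 genes called higher on straw lie above the upper dotted line, and abnA and cbhB lie below the lower one, cbhB with long bars.

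The level at 24 h of starvation against that on glucose was not used either, beyond the ceiling that the rule put on both. Of the 50 tested genes 17 were called higher at 24 h than on glucose, against 15.8% of all tested genes, and 1 was called lower, against 13.5%. The other 32 were not called. By the adjusted p alone 18 were higher, against 19.2%, and the groups of 2 did not overlap in 28 genes that were higher and 3 that were lower at 24 h, against 39.6% and 30.3%. Many of these genes passed the filter on low counts only through their 6 h libraries. Of the 50, 17 had fewer than 10 reads in all over the 4 libraries compared here, 3 of them among the genes called higher, so these counts describe the set and support nothing about it. When only the glucose and 24 h libraries set the filter and entered the fit, 25 genes of the set passed, of which 10 were called higher and 1 lower, against 16.4% and 15.0% of the genes in that fit. In the main fit over all 8 libraries, scaling moved all genes in this comparison by -0.21 on the log2 scale relative to plain CPM.

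The endo-arabinanase gene abnA had 0 and 1.32 CPM on glucose, where both cultures together held 1 read, and 90.5 and 233 CPM at 24 h of starvation. On pooled reads this was a 204-fold difference (exact 95% interval 35.5 to 8161). The edgeR log2 fold change of abnA was 7.17 (SE 0.83, adjusted p = 2.16e-06). The transporter gene An01g06410 rose from 1.57 and 1.32 CPM to 96.8 and 58.3 CPM, a 57.0-fold difference on pooled reads with 2 glucose reads (interval 14.8 to 485). The edgeR test of An01g06410 gave an adjusted p of 4.04e-06. In bglA levels were 70.8 and 72.5 CPM on glucose and 2329 and 1356 CPM at 24 h (log2 fold change 4.47, SE 0.53, adjusted p = 2.82e-06). These 3 genes had thus not returned to the glucose level after a day without carbon. That both 24 h cultures lay below the 6 h ones was required by the rule. In bglA the margin was close to the threshold, with 2329 CPM in 24 h starvation A against 4905 CPM in 6 h starvation B.

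An13g03110, without an annotated role, had 17.3 and 18.5 CPM on glucose and 243 and 345 CPM at 24 h (log2 fold change 3.80, SE 0.54, adjusted p = 1.85e-05). For An14g00990, a gene of fatty acid β-oxidation, the levels were 42.5 and 60.6 CPM and 409 and 462 CPM (2.85, SE 0.48, adjusted p = 0.000115). An05g00300 rose from 6.29 and 2.64 CPM to 37.5 and 38.9 CPM (2.86, SE 0.63, adjusted p = 0.00154). Together with abnA, An01g06410 and bglA, these genes made up the 6 of 17 calls that held under all 14 alternatives.

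Some further calls rested on few reads. TID_172579 (40.6 and 19.4 CPM at 24 h), An18g03360 (12.5 and 34.0 CPM) and An01g14660 (21.8 and 14.6 CPM) each had 2 glucose reads in all. An06g02390 had none, and its 9.36 and 9.72 CPM at 24 h were at least 4.42-fold higher (floor of 3 reads over the group). In pgxB and An15g01950 the call rested on 3 reads at 24 h against 0 on glucose, so no fold is given. The call of pgxB was lost under 7 of the 14 alternatives and that of An15g01950 under 11.

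The remaining higher calls were An07g06880, An13g00950, An08g10110, lacA and An18g04160, with log2 fold changes of 1.65 to 2.12. The call of lacA was lost without glucose A, without glucose B or without 24 h starvation B. It had 34.3 CPM in 24 h starvation A and 170.1 CPM in B, and without B the estimate dropped from 1.71 (SE 0.61, adjusted p = 0.0341) to 0.19. Without glucose A 11 genes were called higher in place of 17.

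The only gene called lower at 24 h than on glucose was An03g01050, a putative endo-β-1,6-galactanase gene. It had 212 and 187 CPM on glucose, 1056 and 888 CPM on straw, 549 and 631 CPM at 6 h of starvation, and 9.36 and 29.2 CPM at 24 h. The log2 fold change from the start to 24 h was -3.68 (SE 0.53, adjusted p = 2.3e-05). In this gene both 6 h conditions were above glucose and both 24 h cultures were below it.

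The conidiophore markers were also highest at 24 h of starvation (398 to 449 CPM in sum against 25.05 to 31.5 CPM on glucose), with 5 of 5 called higher, or 1 of 5 without 24 h starvation A. Of 26 tested genes of a list for the fungal cell wall and autolysis, which holds genes of wall synthesis and remodelling as well as of breakdown, 22 were called higher there and 1 lower, against 15.8% and 13.5% of all tested genes, with a summed level over the list of 16834 to 18213 CPM against 1070.0 to 1111 CPM. Their part in the levels of the 17 genes was not tested. At 6 h, the regulator gene of conidiation brlA was at 0 CPM in both straw cultures and at 17.0 and 2.79 CPM under starvation. The spore pigment gene brnA was at 0 to 1.02 CPM in the 4 libraries at 6 h. The marker mcoB went the other way, at 48.8 and 39.1 CPM under 6 h of starvation against 12.6 and 7.91 CPM on glucose. Of the 5 markers, 1 was called higher at 6 h of starvation than on glucose, against 15.0% of all tested genes. On straw 0 of the 5 were called higher, against 12.0%.

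**Figure D4:**
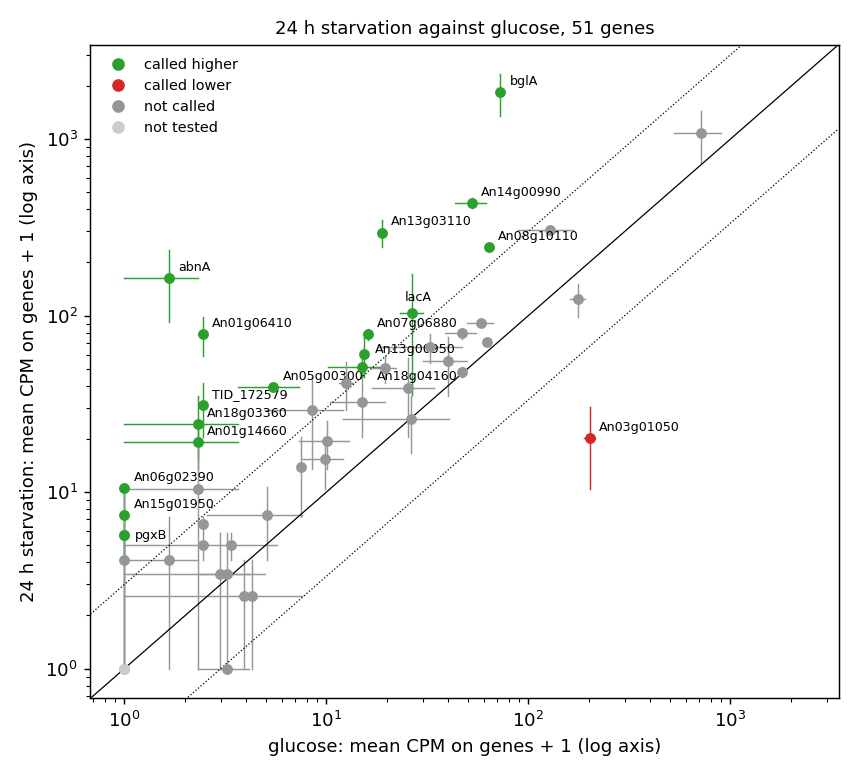
Mean CPM on genes + 1 of the 51 genes on glucose (x axis) and at 24 h of starvation (y axis), both on log axes. Points are means of 2 cultures, the bars run from culture A to culture B, the solid line marks equal levels and the dotted lines 3-fold differences. The gene bglA and abnA lie far above the diagonal, and An03g01050 is the 1 gene called lower.

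The sources gave a role for 27 of the 51 genes, and 15 of these encode carbohydrate-active enzymes. The largest group among them were the 5 genes for pectin side chains, which together took 0.896 and 0.735% of reads on genes on straw and 0.766 and 0.951% at 6 h of starvation, against 0.00504 and 0.00857% on glucose. The α-L-arabinofuranosidase gene abfB, whose product removes single arabinose residues, stood at 11.01 and 3.96 CPM on glucose, 1950.1 and 1247 CPM on straw, 1134 and 943 CPM at 6 h of starvation, and 12.5 and 43.7 CPM at 24 h. Straw was 214-fold and 6 h starvation 139-fold above glucose in mean CPM. The 2 conditions at 6 h differed by 0.55 on the log2 scale (SE 0.44, adjusted p = 0.453), which was not called.

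The set held 3 β-galactosidase genes, whose products remove galactose from galactan side chains. lacA had 22.0 and 29.0 CPM on glucose, 5846 and 5001 CPM on straw, 1950.4 and 2514 CPM at 6 h of starvation, and 34.3 and 170.1 CPM at 24 h. lacB had 11.01 and 39.5 CPM, 186 and 272 CPM, 416 and 631 CPM, and 15.6 and 34.0 CPM in the same order. lacC had 6.29 and 11.9 CPM, 217 and 235 CPM, 335 and 485 CPM, and 12.5 and 24.3 CPM. Between straw and starvation at 6 h the log2 differences were 1.22 (SE 0.50, adjusted p = 0.112) for lacA, -1.24 (SE 0.45, adjusted p = 0.0706) for lacB and -0.91 (SE 0.38, adjusted p = 0.113) for lacC. Both straw cultures were above both starvation cultures in lacA and below them in lacB and lacC, but none of the 3 was called.

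The fifth gene of the group, abnA, had the highest level per length of the pectin genes under starvation, at 2417 CPM per kilobase of gene model against 709 for lacA, and lay 27.1-fold above its mean at 24 h. The order was turned on straw, with 376 for abnA and 1722 for lacA. Of the other 7 genes of the side chain list 6 were tested, and 6 were called higher on straw than on glucose, 4 higher at 6 h of starvation and 3 higher at 24 h, against 12.0%, 15.0% and 15.8% of all tested genes. At 24 h 1 of the 6 was called lower than on glucose, a call lost without glucose B and without either 24 h culture. The arabinanase gene abnC of that list kept its level between the starvation times, with 1586 and 1035 CPM at 6 h of starvation and 1501 and 1477 CPM at 24 h. The lists were taken from tables that the study drew from these or related libraries, so their counts are not independent evidence of direction.

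The pectin backbone was represented by 2 exo-polygalacturonase genes, whose products release galacturonic acid from chain ends. pgaX had 6.29 and 6.59 CPM on glucose, 77.6 and 110 CPM on straw, 117 and 167 CPM at 6 h of starvation, and 6.24 and 19.4 CPM at 24 h. pgxB had no read on glucose, 59.9 and 84.8 CPM on straw, 174 and 218 CPM at 6 h of starvation, and 9.36 and 0 CPM at 24 h, so straw was at least 35.7-fold and 6 h starvation at least 89.6-fold above glucose. In both genes the starvation cultures lay above the straw cultures, and the log2 difference of pgaX, -0.63 (SE 0.41, adjusted p = 0.345), did not pass the test. Of the other 21 genes of the backbone list only 9 had enough reads to be tested. Of these, 7 were called higher on straw than on glucose, 8 at 6 h of starvation and 3 at 24 h, against 12.0%, 15.0% and 15.8% of all tested genes. Without glucose A the 7 on straw became 4, and without glucose B the 3 at 24 h became 1.

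**Figure D5:**
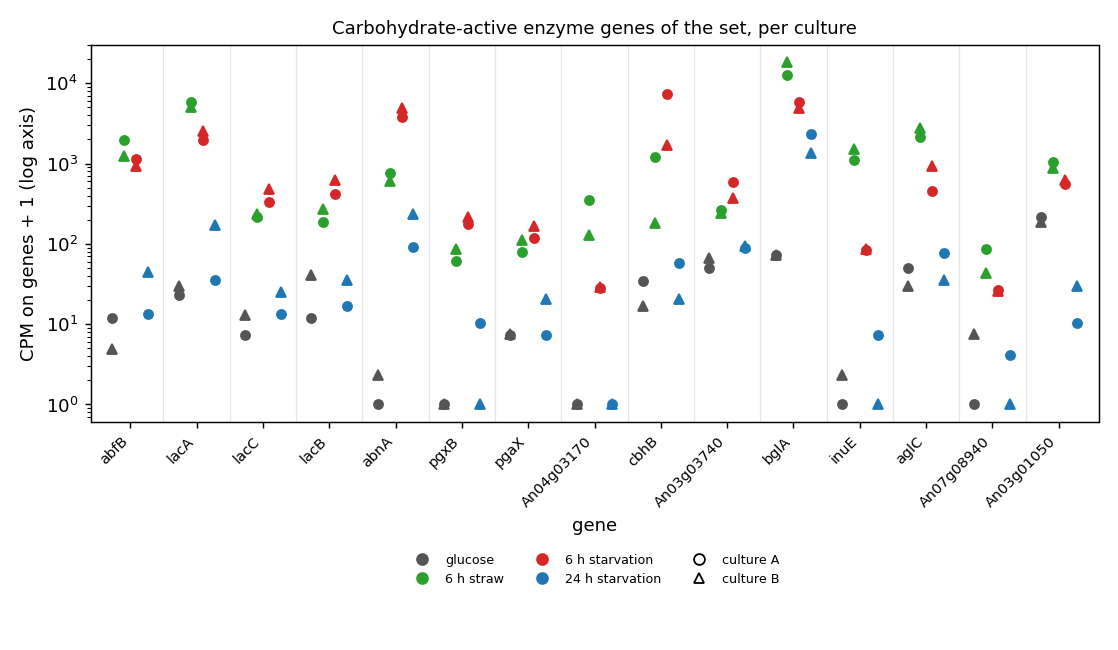
CPM on genes + 1 (log axis, y) of the 15 carbohydrate-active enzyme genes of the set (x) in every culture, coloured by condition, with circles for culture A and triangles for culture B. The red starvation symbols lie above the green straw ones in abnA, lacB, lacC, pgxB, pgaX, cbhB and An03g03740, and below them in the other 8 genes.

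The β-glucosidase gene bglA, whose product splits cellobiose into glucose, had the highest level per length of all 51 genes, with a mean over the 6 h libraries of 4060 CPM per kilobase. It stood at 12730 and 18518 CPM on straw and at 5794 and 4905 CPM at 6 h of starvation. Straw was 218-fold and 6 h starvation 74.7-fold above glucose. An03g03740, a further β-glucosidase gene, had 48.8 and 65.9 CPM on glucose, 260 and 240.0 CPM on straw, 581 and 368 CPM at 6 h of starvation, and 87.4 and 92.3 CPM at 24 h, and its log2 difference between straw and starvation was -1.001 (SE 0.38, adjusted p = 0.0792). Of the 3 β-glucosidase genes in the set, An04g03170 alone was called higher on straw, bglA passed the adjusted p with less than a 3-fold change, and An03g03740 lay lower on straw without passing the test. Of the other 6 genes of that list 5 were tested, and 5 were called higher on straw than on glucose, 4 at 6 h of starvation and 4 at 24 h, against 12.0%, 15.0% and 15.8% of all tested genes. The 4 at 24 h became 2 without glucose A or without either 24 h culture.

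Cellulases were otherwise missing from the set. In the cellulose list the other 9 genes included eglA and eglB, 2 endoglucanase genes with 1393 and 286 CPM and with 870 and 434 CPM on straw. Their levels at 6 h of starvation were 29.7 and 11.2 CPM for eglA and 25.4 and 16.7 CPM for eglB, near the 9.23 to 26.7 CPM of the glucose cultures. Of 6 tested genes 4 were called higher on straw than on glucose and 1 at 6 h of starvation, against 12.0% and 15.0% of all tested genes. The cellobiohydrolase gene cbhB of the same list, at 33.0 and 15.8 CPM on glucose, had a higher mean under starvation than on straw. As given above, that difference depended on single cultures. Of the 6 h starvation mean of cbhB, from cultures at 7261 and 1708 CPM, 0.843% was left at 24 h. Its neighbour An01g11670, also of this list, had 64.3 and 12.3 CPM on straw and 138 and 72.5 CPM at 6 h of starvation, against 15.7 and 2.64 CPM on glucose. The acetylesterase-like gene An07g08940, beside eglB in the genome, had 84.3 and 41.9 CPM on straw, 25.4 and 25.1 CPM at 6 h of starvation, 0 and 6.59 CPM on glucose, and 3.12 and 0 CPM at 24 h.

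Genes of carbon metabolism made up 7 of the set. An01g09270, the putative isocitrate lyase gene, had 522 and 903 CPM on glucose, 3743 and 9393 CPM on straw, 4558 and 7946 CPM at 6 h of starvation, and 1445 and 729 CPM at 24 h. It was thus also well read on glucose, and its ratio was 2.58. Straw and starvation differed by 0.02 on the log2 scale (SE 0.52, adjusted p = 0.99), and 24 h starvation and glucose by 0.39 (SE 0.52, adjusted p = 0.596). In neither comparison did the cultures separate.

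In the set 3 genes had a role in fatty acid use. An14g00990, annotated with enoyl-CoA hydratase and 3-hydroxyacyl-CoA dehydrogenase activities, which act in β-oxidation, stood at 1773 and 1958 CPM on straw and 965 and 2254 CPM at 6 h of starvation. The difference between these conditions was 0.16 on the log2 scale (SE 0.42, adjusted p = 0.856). An16g04830, a long-chain fatty acid-CoA ligase gene, was far lower, with 37.7 and 35.7 CPM on straw, 19.1 and 16.7 CPM at 6 h of starvation, and 2 reads each on glucose and at 24 h. An14g00920 encodes a protein annotated as a positive regulator of transcription with a role in fatty acid catabolism. It had 12.6 and 10.5 CPM on glucose, 149 and 115 CPM on straw, 155 and 137 CPM at 6 h of starvation, and 28.1 and 53.5 CPM at 24 h. All of the other 9 genes of the list for fatty acid and acetate use were tested. Of these, 9 were called higher on straw than on glucose, 5 at 6 h of starvation and 1 at 24 h. The shares over all tested genes were 12.0%, 15.0% and 15.8%. From 6 h to 24 h of starvation 4 of the 9 were called lower, against 3.73% of all tested genes, but leaving out culture A at 24 h left 1 call and leaving out culture B left no call.

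An13g00950, an alcohol dehydrogenase gene placed in glycerol metabolism, was even between conditions at 6 h, with 304 and 312 CPM on straw and 282 and 379 CPM under starvation. It had 14.2 and 14.5 CPM on glucose and 74.9 and 43.7 CPM at 24 h, and was called higher at 24 h than before the transfer (log2 fold change of 1.85, SE 0.49, adjusted p = 0.00565), a call lost without 24 h starvation A. An18g04160, a dihydroxy-acid dehydratase gene of branched-chain amino acid synthesis, had 18.9 and 9.23 CPM on glucose, 621 and 311 CPM on straw, 153 and 151 CPM at 6 h of starvation, and 56.2 and 43.7 CPM at 24 h. An01g09620, with the domain of long-chain alcohol oxidases, had 282 and 309 CPM on straw and 257 and 438 CPM at 6 h of starvation, against 37.8 and 54.1 CPM on glucose.

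Membrane transporters were represented by 3 genes with different profiles. An13g03680, annotated with allantoate and dipeptide transport, had 9.44 and 18.5 CPM on glucose, 386 and 308 CPM on straw, 231 and 251 CPM at 6 h of starvation, and 43.7 and 19.4 CPM at 24 h. An01g06410 was even at 6 h, with 211 and 263 CPM on straw and 280 and 243 CPM under starvation. An01g14660 was the gene called higher on straw above. It is the direct neighbour of rgxA, a gene for an exo-rhamnogalacturonase that was itself low, at 17.7 and 6.13 CPM on straw and 0 and 2.79 CPM at 6 h of starvation. Besides An14g00920, the set held 1 gene with a transcription factor domain, An01g01330 of the zinc type, which was low throughout at 57.7 and 33.7 CPM on straw, 27.6 and 36.3 CPM at 6 h of starvation and at most 4.86 CPM elsewhere.

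No role was annotated for 24 of the 51 genes, which together held 1.00 and 1.06% of reads on genes on straw and 0.802 and 1.27% at 6 h of starvation. Per length, the highest of them were An08g10110, with a mean over the 6 h libraries of 2254 CPM per kilobase, An13g03110 with 1830.1 and An16g05340 with 1241. An13g03110 stood at 2509 and 1073 CPM on straw and at 3405 and 4213 CPM at 6 h of starvation. An08g10110 stood at 686 and 967 CPM on straw and at 780.2 and 2310.3 CPM at 6 h of starvation, with 59.8 and 65.9 CPM on glucose. An16g05340 was read at 88.1 and 166 CPM on glucose already, and at 1546 and 1888 CPM on straw, 965 and 1412 CPM at 6 h of starvation, and 322 and 287 CPM at 24 h.

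An08g01720 and An18g03360 had the highest ratios among the genes without a role. An08g01720 had no read on glucose, 257 and 113 CPM on straw, 187 and 86.5 CPM at 6 h of starvation, and 6.24 and 0 CPM at 24 h, which put straw at least 73.8-fold and starvation at least 66.6-fold above glucose. In An18g03360 the levels were 0 and 2.64 CPM, 448 and 273 CPM, 322 and 1183 CPM, and 12.5 and 34.0 CPM. In An18g03360 starvation A lay between the straw cultures and starvation B above both. An12g01870 differed from most in being read at 190.4 and 160 CPM on glucose, with 1191 and 1090 CPM on straw, 863 and 988 CPM at 6 h of starvation, and 96.8 and 151 CPM at 24 h.

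Some genes of the set lay beside genes of plant carbohydrate degradation. In gene order on the contigs of the RefSeq reference, to which 48 of the 51 genes were matched, 5 had a gene of the plant carbohydrate lists immediately beside them, or 10.4%, against 1.10% of the other matched genes. These 5 were An08g01720 beside abfC, cbhB beside An01g11670, An01g14660 beside rgxA, An07g08940 beside eglB, and An11g00400 beside rglB. The arabinofuranosidase gene abfC followed a course like that of its neighbour, with 577 and 492 CPM on straw and 208 and 282 CPM at 6 h of starvation, but kept 93.6 and 131 CPM at 24 h. The rhamnogalacturonan lyase gene rglB had 64.3 and 33.7 CPM on straw and 2.12 and 11.2 CPM at 6 h of starvation, while An11g00400 had 865 and 1906 CPM and 180.2 and 706 CPM. Only abnA and An09g01210, which are 2 gene models apart, were close to another gene of the set, and An09g01210 had 151 and 139 CPM on straw and 214 and 282 CPM at 6 h of starvation.

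The matched genes were spread over 8 chromosomes, from 3 on chromosome V and 3 on chromosome VII to 14 on chromosome II. The shares of all genes on these chromosomes are not given here, so no concentration can be read from these counts. The median length of all 51 genes was 1512 bases, with a range of 255 to 4122, against 1463 bases over the tested genes and 1165 over all genes with a length.

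Outside the set, the 18 lists held 145 further genes, of which 123 were tested. As the lists were taken from what the study drew from these or related libraries, their counts are not independent evidence of direction. On straw 86 of the 123 genes were called higher and 1 lower than on glucose, against 12.0% and 10.3% of all tested genes. At 6 h of starvation 74 were called higher than on glucose, against 15.0%. At 24 h of starvation 71 were called higher and 3 lower than on glucose, against 15.8% and 13.5% of all tested genes. Between 6 h and 24 h of starvation 11 of them were called higher and 11 lower, against 3.78% and 3.73% of all tested genes. The list for mannan and α-galactosides, which also holds a gene for trimming of glycans, had 7 tested genes outside the set. Of these, 6 were called higher than on glucose at 6 h of starvation and 6 at 24 h, against 15.0% and 15.8% of all tested genes. Its member aglC, at 74.9 and 34.0 CPM at 24 h against 48.8 and 29.0 CPM on glucose, was not called (log2 fold change 0.33, SE 0.53, adjusted p = 0.666). The rule kept out genes whose 24 h level stayed near or above their 6 h level, so this contrast follows from the selection.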

How the data were processed

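RNA of 8 mycelium samples was sequenced in single libraries, 2 per condition. The authors filtered SOLiD reads, mapped them with LifeScope and counted uniquely aligned forward reads per ATCC 1015 gene model with HTSeq, and deposited these counts with RPKM values, which divide by all reads, those on no gene included. Whether counting used strand is not given in the sources used here, so reads of overlapping genes cannot be told apart. The 5 summary rows of the counter, which take most reads, were left out, and 15431 gene models remained.

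Counts were tested with edgeR 4.0.16 (R 4.3.3; filterByExpr, TMM, quasi-likelihood test over 8 libraries, Benjamini-Hochberg adjustment over 6357 genes), checked first on simulated counts. A call needed an adjusted p below 0.05 and a 3-fold change. SEs are the estimate over the root of F. Alternatives were other size factors, no filter, DESeq2 1.42.0, a replicate block, 2 conditions only, other call rules and leaving out each library. A and B are separate flasks, so p-values measure the spread between cultures. The deposited RPKM values entered only alternatives. Libraries of straw at 24 h were not analysed here.

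The set and the gene lists, which follow the study's tables, were chosen with earlier results of these data known. Named genes were the 10 highest ratios, the 10 highest levels per kilobase, up to 10 calls per direction and comparison, list members, genes at the threshold and close neighbours, and further genes were named after their values were seen. Gene order came from RefSeq (ASM285v2).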

Additional observations from a re-analysis of the deposited data

How the results depend on the processing

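With 2 cultures per condition and few reads on genes, levels near 1 read and differences of low genes are uncertain, and intervals and floors cover counting error only. The number of genes that met the rule, 51, became 76 with 1 added to CPM in place of 5, 42 with 10, 71 on TMM library sizes, 14 with deposited RPKM plus 1 (12 of them shared) and 20 at a ratio of at least 3. Leaving out 1 library, which relaxes the rule by construction, gave 56 to 85, with 85 when culture A of 6 h starvation was left out, and 80 and 79 when culture A or B of 24 h starvation was.

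Between straw and starvation at 6 h, leaving out 1 library gave 7 to 11 genes of the set higher and 1 to 3 lower, and DESeq2 gave 1 lower in place of 2. Between 24 h starvation and glucose it gave 11 to 16 higher and 1 lower in each case, and fitting only the 2 conditions gave 10 higher in place of 17. Deviations of A from B correlated between conditions at -0.07 to 0.28. The highest value, 0.28, was between straw and starvation at 6 h, followed by 0.19 between the starvation times. The labels do not say that a letter marks a shared batch, and the letters were not taken to pair the cultures. With the letter as a replicate block the counts were 9 and 2 for straw against starvation and 17 and 1 for 24 h against glucose, while the difference of An01g09270 between straw and starvation turned to -0.033.

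Leaving out 1 library moved An01g09270 between -0.80 and 0.54 in that comparison and between -0.23 and 0.85 between 24 h and glucose, and An14g00990 between -0.30 and 0.85 in the former. In the lists outside the set, the genes called lower became 2 in place of 1 on straw without the filter, and 1 in place of 0 at 6 h of starvation with an RPKM ratio of at least 3 or with the adjusted p alone. At 24 h against glucose they became 5 in place of 3 without the filter and 5 with the replicate block, and between 6 h and 24 h of starvation 17 in place of 11 without the filter and 6 with the RPKM ratio. Leaving out 1 library gave 81 to 89 higher and 0 to 2 lower on straw, 64 to 76 and 0 to 2 at 6 h of starvation, 56 to 73 and 1 to 4 at 24 h against glucose, and 7 to 12 and 5 to 14 between the starvation times. The cause of these shifts was not tested.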
